A study of Mus musculus with 16 samples.

Results

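Kidneys of mice that had been preconditioned by hypoxia and then given cisplatin were compared with kidneys of mice that had neither, to ask which genes differ when both exposures are combined. The comparison uses 8 of the 16 libraries of the series: the 4 whose labels give hypoxia as preconditioning and cisplatin as injection, and the 4 that give baseline preconditioning and vehicle. The mice were C57BL/6, aged 20 weeks, and the tissue was kidney, taken 72 h after an intraperitoneal injection of cisplatin or of 0.9% sodium chloride. Hypoxia lasted 2, 4 and 8 h on 3 following days and ended at least 1 h before the injection, while baseline mice had no preconditioning. The other 8 libraries, used here only for values set side by side, were 4 of baseline mice given cisplatin and 4 of mice kept for 4 weeks on calorie restriction and then given cisplatin. No library came from hypoxia followed by vehicle, so that in this contrast the effects of hypoxia and of cisplatin cannot be told apart. Replicate numbers follow accession order and pair no samples, and the labels do not say that libraries of a group came from separate mice. The p-values therefore rest on the spread between libraries, estimated over all 16 of the series and not over these 8 alone.

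Cisplatin is a platinum drug that binds DNA and is taken up by proximal tubule cells of the kidney, where it is known to activate p53, a transcription factor that induces genes of cell-cycle arrest and apoptosis. Injured tubule cells are known to lose the transporters and enzymes of the mature tubule, and to express injury markers such as Havcr1, which encodes KIM-1, and Lcn2, which encodes NGAL. Hypoxia stabilises hypoxia-inducible factor (HIF), which induces genes of glycolysis and blood vessel growth. Low oxygen before a toxic insult has been studied as a way to make the kidney more resistant.

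Levels are in TPM, the reads of a gene per exon length scaled to the same sum in each library, as deposited. Differences are between means of log2(TPM + 1), a scale on which low genes show less than their true fold, and they were tested with limma across 15014 genes that reached 1 TPM in at least 4 of the 16 libraries. Genes are said to have risen or fallen where the p adjusted by the Benjamini-Hochberg method was below 0.05. Unless another group is named, each difference is hypoxia plus cisplatin minus vehicle.

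The 4 hypoxia-plus-cisplatin libraries were not alike. Whole reads could be recovered from the TPM values, with 53198276 to 62604521 reads in each of the 8 libraries, and each pair of libraries was compared by a noise ratio, in which 1 is the difference that counting alone would give. Pairs of vehicle libraries had ratios of 4.36 to 9.97. The libraries labelled hypoxia plus cisplatin 1, 2 and 3 stood 68.4 to 75.9, 21.3 to 30.5 and 38.1 to 43.6 from the vehicle libraries. The library labelled hypoxia plus cisplatin 4 stood 5.28 to 9.45 from the vehicle libraries, within the range of the vehicle pairs, and 24.8 to 68.2 from the other 3 libraries of its own group. Of the 120 pairs in the series, its pair with calorie restriction plus cisplatin 4 had the lowest ratio, 1.80, against 3.37 to 85.8 in the other 119. The pair differed by more than counting noise, but the ratio cannot show whether both came from different samples. Both libraries were kept as they are labelled. The labels cannot show whether a label was exchanged, so each mean over the 4 libraries is that of the libraries so labelled. Counts for the gene lists are given with all 4 libraries and with single libraries left out. Of 194 genes chosen by the naming rules that passed, none lost its call without library 4. They were chosen with library 4 in the fit, and leaving it out raised the calls over all genes from 4398 to 7709. That none was lost is therefore no check on library 4. Library 4 was also singled out from these same values, so results without it are description, and their smaller p-values are no added support.

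**Figure D1:**
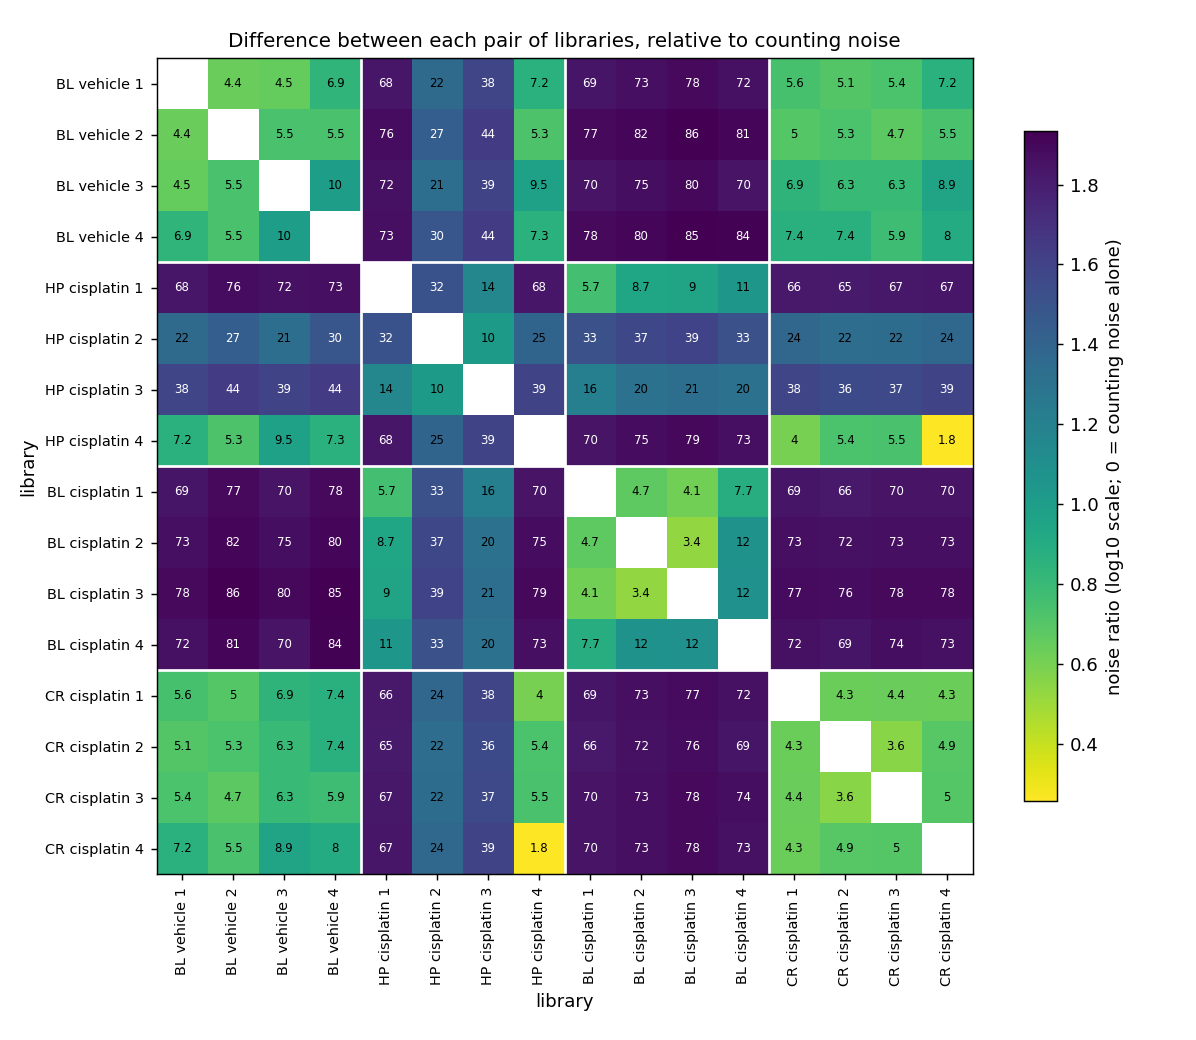
Each cell gives, for a pair of libraries (both axes), the noise ratio of their recovered reads, and the colour gives its log10 with 0 for counting noise alone. Hypoxia plus cisplatin 1, 2 and 3 are far from the vehicle libraries, library 4 is as near to them as they are to each other, and its pair with calorie restriction plus cisplatin 4 has the lowest ratio, 1.80.

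The share of reads from mitochondrial ribosomal RNA was 27.4% to 31.3% in the hypoxia-plus-cisplatin libraries and 31.1% to 33.1% in the vehicle libraries, and nuclear protein-coding genes took 22.5% to 25.5% and 25.4% to 25.7% of the TPM. The median SD over genes on the log2 scale was 0.236 in the hypoxia-plus-cisplatin group, 0.175 without its library 4 and 0.0963 in the vehicle group. Of all genes tested, 83.7% had a larger SD with hypoxia plus cisplatin than with vehicle. The part of these differences in the results below was not tested.

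Across all genes, 2889 rose and 1509 fell, which is 19.2% and 10.1% of the genes tested, or 29.3% for both directions together. The median difference over all genes was 0.06, and 65.7% of the calls were rises. When each library was centred on its own median, the calls split almost evenly, with 2416 higher and 2395 lower. With library 4 left out, 5024 genes rose and 2685 fell, or 33.5% and 17.9% of the genes tested and 51.3% together. The 4 and 4 libraries did not overlap in 2278 genes, or 15.2%, of which 1276 (8.5%) were higher and 1002 (6.67%) lower. Without library 4, the 3 and 4 libraries did not overlap in 7593 genes, or 50.6%. Counts in the gene lists below stand against these shares, and a count near them is no result about a list.

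The count depended on which libraries entered the fit. The spread was estimated over all 16 libraries. When the 8 libraries were fitted alone, 11 genes passed, or 0.0733% of those tested, of which 7 were higher and 4 lower, and 4559 had an unadjusted p below 0.05. Fitted alone without library 4, 4180 genes were higher and 1903 lower. Leaving out library 3 left 692 calls and leaving out library 1 left 1911. Leaving out library 2 left 4120 calls, and each vehicle library left out in turn gave 2561, 2134, 2545 and 2373. Of the same 194 genes, 183 lost the call with the 8 libraries alone, 116 without library 3 and 54 without library 1. Of the gene lists described below, the fit of the 8 libraries alone left calls in 3, the clock list (1 higher, 3 lower) and the lists of glucose production and of ketones and fasting (1 higher in each). The plot of calls by library shows the counts.

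**Figure D2:**
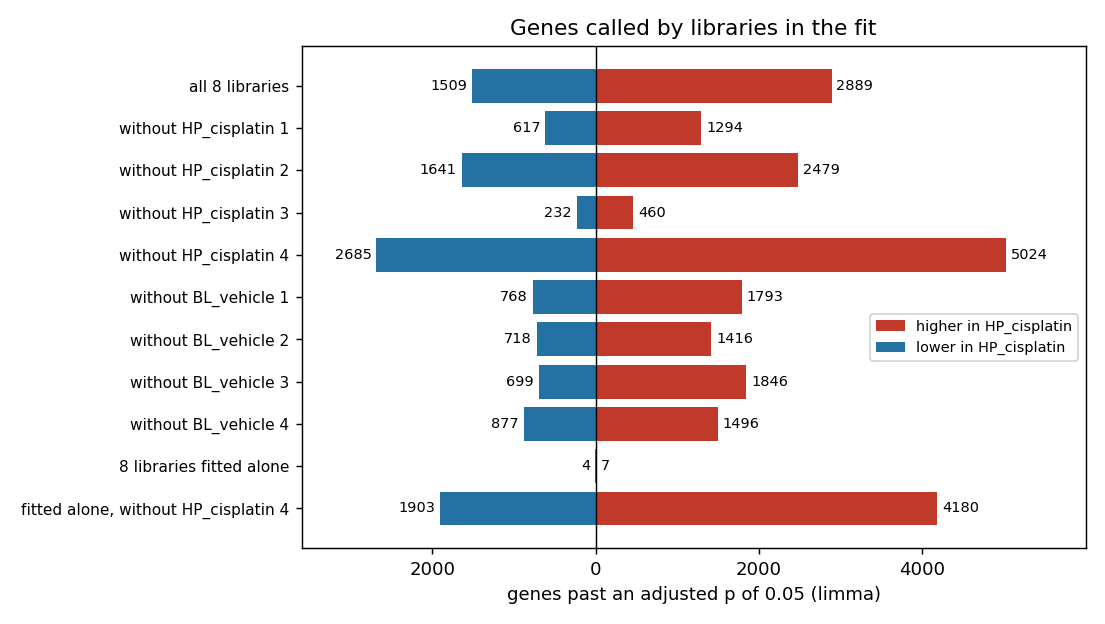
Bars give the number of genes (x axis) past an adjusted p of 0.05 by limma, higher to the right and lower to the left in hypoxia plus cisplatin (HP_cisplatin) against vehicle (BL_vehicle), for each set of libraries (y axis). The counts run from 11 with the 8 libraries fitted alone to 7709 with library 4 left out.

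The p53 targets stood high in 3 of the 4 hypoxia-plus-cisplatin libraries. Of 20 genes on a list of p53 targets in cell-cycle arrest and feedback, 15 rose and none fell, with a median difference of 1.84 against 0.06 over all genes. By library, the median was 2.52, 1.86, 2.54 and 0.07. Of 12 p53 targets in apoptosis, 12 rose, with a median of 1.45 and library medians of 2.27, 1.43, 1.88 and 0.15. Without library 4 the medians were 2.37 and 1.87, with 17 and 12 genes higher, and without library 3, 11 and 7 genes were higher.

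Cdkn1a (ENSMUSG00000023067; GRCm38, chr17:29090976-29100727), which encodes the cell-cycle inhibitor p21, was at 206, 101, 146 and 3.76 TPM in libraries 1 to 4 and at 0.772, 0.494, 1.36 and 1.47 TPM in the vehicle libraries. All 4 libraries lay above every vehicle library, and library 4 lay close to them. The difference was 4.97 (95% confidence interval 3.13 to 6.80, adjusted p = 0.00655 by limma), and 6.20 without library 4 (adjusted p = 3.85e-08). With the 8 libraries fitted alone, the adjusted p of Cdkn1a by limma was 0.134. Phlda3, a p53-induced inhibitor of Akt signalling, was at 87.8, 62.7, 78.3 and 7.18 TPM against 2.25, 2.31, 4.35 and 3.27 TPM. The groups did not overlap, and the difference was 3.47 (SE 0.59, adjusted p = 0.00655). Ccng1, which encodes cyclin G1, was at 341, 411, 415 and 93.8 TPM against 59.3, 63.3, 56.2 and 70.7 TPM. It rose by 2.11 (SE 0.37, adjusted p = 0.00683), and again library 4 was the lowest of its group. Gtse1, a regulator of p53 in the cell cycle, was at 17.8, 7.84, 13.7 and 0.579 TPM against 0.171, 0.197, 0.361 and 0.395 TPM, a difference of 2.62 (adjusted p = 0.00999).

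Mdm2, the ubiquitin ligase that limits p53, was at 93.4, 45.7, 72.4 and 12.1 TPM against 10.8, 9.79, 10 and 10.6 TPM and rose by 2.01 (SE 0.42, adjusted p = 0.011). Bax, a pore-forming protein of apoptosis, was at 86, 59.6, 67.4 and 23.5 TPM against 18.2, 20.5, 19.3 and 17.9 TPM and rose by 1.45 (adjusted p = 0.00899). For both genes the lowest hypoxia-plus-cisplatin value was above the highest vehicle value. Pidd1, part of the complex that activates caspase-2, was at 5.22, 3.36, 5.09 and 1.26 TPM against 0.612, 0.765, 0.582 and 0.824 TPM, and rose by 1.38 (SE 0.23, adjusted p = 0.00655). Bbc3, which encodes PUMA, rose by 1.89, and the nuclease gene Aen rose by 1.95, with adjusted p of 0.0101 and 0.00731. Trp53 itself was at 14.4, 6.73, 10.5 and 4.27 TPM against 4.58, 3.69, 4.13 and 4.09 TPM and rose by 0.85 (adjusted p = 0.0194). The p53 targets that did not pass were Plk3 at 0.50, Ddb2 at 0.12, Sesn1 at -0.15, Rrm2b at -0.06 and Xpc at -0.01.

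Promoters of the p53 targets that rose were searched for the p53 response element, 2 adjacent half-sites of 10 bases each, on both strands and with at most 1 mismatch in all. The windows came from RefSeq (GRCm38.p6) and ran from 250 bases before to 50 after each start. The element was found in 29 of 32851 windows (0.0883%) and in 4 of the 30 windows of the 22 p53 targets that rose and are in the table (13.3%), those of Cdkn1a, Ccng1, Rps27l and Gtse1. The mismatch was allowed after a search with none, but with a spacer of up to 13 bases, had found only Cdkn1a on the list. The list holds known p53 targets, so the matches are not independent evidence, and a match is no proof of binding. The windows of Cdkn1a (chr17:29090729-29090978, plus strand) and Ccng1 (chr11:40755287-40755536, minus strand) are shown because both genes rose and carry the element, which is in capitals.
Cdkn1a: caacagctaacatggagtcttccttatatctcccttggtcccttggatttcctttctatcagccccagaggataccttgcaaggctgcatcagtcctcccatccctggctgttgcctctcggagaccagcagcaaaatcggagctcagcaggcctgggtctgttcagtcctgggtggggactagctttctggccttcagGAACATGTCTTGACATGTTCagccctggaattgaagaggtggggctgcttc
Ccng1: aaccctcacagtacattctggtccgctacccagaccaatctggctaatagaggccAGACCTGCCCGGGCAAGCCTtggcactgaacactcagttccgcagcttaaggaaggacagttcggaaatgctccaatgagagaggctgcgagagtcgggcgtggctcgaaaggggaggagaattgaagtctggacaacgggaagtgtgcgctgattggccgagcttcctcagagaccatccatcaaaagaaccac
In Cdkn1a the element begins 51 bases before the start, and in Ccng1 195 bases before it. The matches in Rps27l, a ribosomal protein gene induced by p53, and in Gtse1 are given alone, and the first begins 117 bases before a start.
Rps27l: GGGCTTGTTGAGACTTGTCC
Gtse1: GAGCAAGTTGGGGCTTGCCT
Rps27l was at 203, 184, 210.4 and 82.3 TPM against 69.7, 72.4, 66.9 and 78.2 TPM and rose by 1.15 (SE 0.22, adjusted p = 0.00948). Like the other 3 genes it was lowest in library 4, with no overlap between the groups.

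Injury markers that tubule cells release or shed were also high in libraries 1 to 3. Of 16 on the list, 9 rose and 1 fell, Igfbp7 at -0.27 (adjusted p = 0.0463), and the median difference was 1.51. Library medians were 2.92, 1.12, 1.80 and -0.06. Without library 4, 11 rose and 1 fell, with a median of 2.02, and without library 3, 4 rose and none fell. The fall was also lost without library 1 and without vehicle library 1, 2 or 3.

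Havcr1 (ENSMUSG00000040405; chr11:46735080-46779578), the gene of KIM-1, was at 582, 51, 409 and 0.473 TPM in libraries 1 to 4 and at 0.339, 0.306, 1.33 and 1.06 TPM with vehicle. Libraries 1 to 3 were far above every vehicle library and differed among themselves by more than 10 times, and library 4 lay among the vehicle libraries. The difference was 5.26 (95% confidence interval 2.47 to 8.06, adjusted p = 0.0159), or 7.09 without library 4 (adjusted p = 1.63e-06). The SD of libraries 1 to 4 was 3.96 on the log2 scale. The interval rests on a spread shared by all groups and is too narrow for this one. Havcr1 lost the call without library 3 (4.38, adjusted p = 0.0605) and by voom (6.41, adjusted p = 0.0808). Lcn2, the gene of the iron-carrier binding protein NGAL, was at 199, 28.4, 101 and 0.611 TPM against 0.841, 0.428, 0.987 and 0.409 TPM. It rose by 4.25 (SE 1.01, adjusted p = 0.0143), with library 4 again within the vehicle range, and lost the call without library 3 (3.68, adjusted p = 0.057). Gdf15, a stress cytokine, was at 148, 53.4, 104 and 3.64 TPM against 3.73, 2.53, 2.41 and 3.96 TPM. Its difference was 3.44 (adjusted p = 0.0122), and library 4 overlapped the vehicle libraries.

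For 4 of the 16 markers, every hypoxia-plus-cisplatin library lay above every vehicle library. Clu, which encodes the secreted chaperone clusterin, was raised in library 4 as well. It was at 199, 95.2, 199.97 and 99.1 TPM against 51.4, 62.7, 47.9 and 45.6 TPM, and rose by 1.42 (SE 0.24, adjusted p = 0.00655) with no overlap. Fibrinogen chains, which the injured kidney is known to make, rose together. Fga was at 194, 78.9, 104 and 14.8 TPM against 12.3, 6.23, 7.51 and 4.25 TPM, with a difference of 3.14 (adjusted p = 0.00785), and Fgg and Fgb rose by 3.71 and 1.65 (adjusted p = 0.0156 and 0.0305). Spp1, the gene of osteopontin, was at 3013, 1324, 2642 and 336 TPM against 283, 306, 384 and 172 TPM and rose by 2.31 (SE 0.50, adjusted p = 0.0119).

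Genes of dedifferentiated tubule cells rose in 21 of 27 tested, and none fell, with a median of 1.69 and library medians of 2.87, 1.20, 2.25 and 0.06. Without library 4, 24 rose and the median was 2.11. The number was 5 without library 3, and 13 or 14 without library 1 or any 1 vehicle library. Sprr1a, a gene of the cornified envelope, was at 147, 22.5, 66 and 5.87 TPM against 3.28, 0.454, 3.54 and 0.433 TPM. Library 4 was the lowest of its group and still above every vehicle library, and the difference was 3.82 (SE 0.76, adjusted p = 0.00976). Tnfrsf12a, the receptor of the cytokine TWEAK, was at 249, 77.6, 149 and 13.1 TPM against 10.8, 8.89, 8.99 and 11.5 TPM and rose by 2.87 (adjusted p = 0.0105). Itgb6, the beta subunit of an integrin that activates TGF-beta, was at 73.3, 38.2, 61.2 and 32.1 TPM against 16.9, 16.1, 15.3 and 15.8 TPM. Every hypoxia-plus-cisplatin library, number 4 included, was well above the vehicle libraries, and the difference was 1.54 (SE 0.20, adjusted p = 0.0022).

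The keratin gene Krt20 was at 446, 26.9, 162 and 0.158 TPM against 0.0509, 0, 0.61 and 0.557 TPM, and rose by 4.94 (SE 1.24, adjusted p = 0.0166), although library 4 lay within the vehicle range. Sox9, a transcription factor of regenerating tubule, was at 7.62, 0.981, 2.52 and 0.16 TPM against 0.154, 0.0767, 0.128 and 0.117 TPM and rose by 1.37 (adjusted p = 0.0269). Vim, which encodes vimentin, rose by 0.73 and the hyaluronan receptor gene Cd44 by 1.34 (adjusted p = 0.0279 and 0.0484). Vcam1 at 0.25, Krt7 at 0.09 and Anxa1 at 0.33 did not pass the test. The plot of injury, p53 and tubule genes shows the same order of libraries, 1 and 3 high, 2 between and 4 near vehicle, for Havcr1 and Lcn2.

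**Figure D3:**
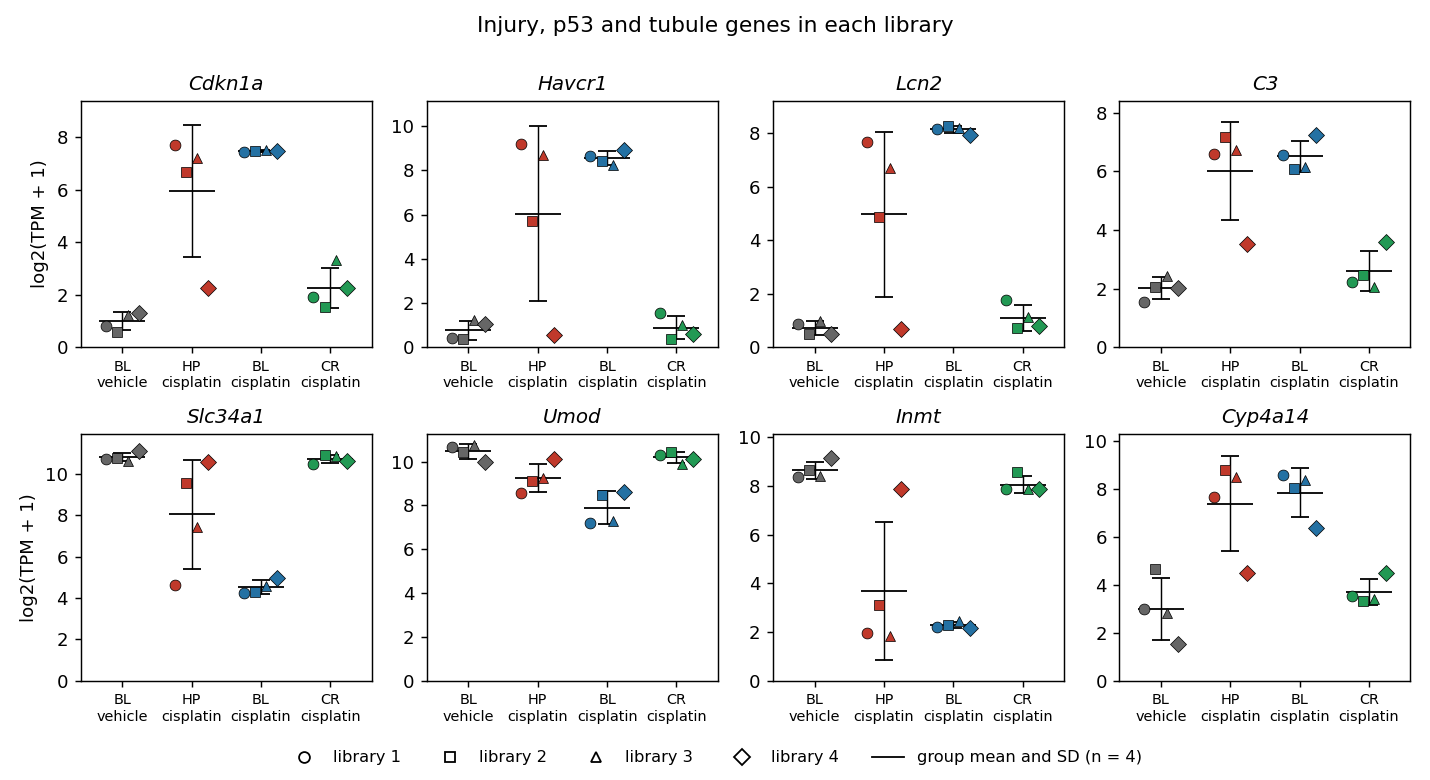
Points give log2(TPM + 1) (y axis) of 8 genes in each library by group (x axis), with group mean and SD (n = 4); BL is baseline, HP hypoxia and CR calorie restriction. Hypoxia plus cisplatin 1 to 3 lie above vehicle for Cdkn1a, Havcr1, Lcn2, C3 and Cyp4a14 and below it for Slc34a1, Umod and Inmt, with library 4 nearer to vehicle in each.

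Genes of the proximal tubule were low in the same libraries. Of 25 genes of the convoluted part, 13 fell and none rose, with a median of -1.04 and library medians of -2.34, -0.33, -1.30 and -0.07. Of 22 genes of the straight part, 11 fell and 2 rose, with a median of -1.30 and library medians of -2.67, -1.10, -1.01 and 0.18. Of 11 brush border peptidases, 5 fell, with a median of -0.95. Without library 4, 19, 16 and 8 fell in the 3 lists, and without library 3, 2, 2 and 1. Leaving out library 1 gave 7, 4 and 3 falls, and leaving out 1 vehicle library gave 6 to 8, 4 to 6 and 2 to 3. In bulk tissue, fewer cells of a type and less RNA per cell cannot be told apart.

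Slc34a1 (ENSMUSG00000021490; chr13:55398187-55415592), the sodium-phosphate cotransporter of the brush border, was at 23.3, 754, 170.01 and 1509.5 TPM against 1644, 1752, 1580.1 and 2173 TPM. Library 1 had almost none of the vehicle level, library 2 kept a large share of it and library 4 was close to it, and all 4 were below every vehicle library. The difference was -2.76 (SE 0.87, adjusted p = 0.0323), or -3.60 without library 4. Slc34a1 lost the call when any other of the 8 libraries was left out, except library 2, with adjusted p between 0.0506 (without library 1, -1.61) and 0.0929 (without library 3). Slc6a19, the neutral amino acid transporter, was at 19.4, 39.3, 18.5 and 42.7 TPM against 62, 71.5, 77.7 and 80.6 TPM and fell by 1.35 (SE 0.24, adjusted p = 0.00783). Here library 2 and library 4 were alike and both below the vehicle range. Slc9a3, the sodium-hydrogen exchanger NHE3, was at 17.9, 27.6, 28.3 and 33.8 TPM against 44, 44.7, 52.7 and 41.1 TPM and fell by 0.77 (adjusted p = 0.0129). Slc22a8, an organic anion transporter, was at 5.02, 59.1, 13.2 and 68.3 TPM against 107, 132, 110.03 and 97.9 TPM, a difference of -2.20 (adjusted p = 0.0174). It did not overlap between the groups.

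In the straight part, Inmt, which encodes a methyltransferase of indoles and amines, was at 2.92, 7.75, 2.62 and 232 TPM against 325, 397, 339.6 and 563 TPM. Libraries 1 to 3 had a small fraction of the vehicle level, and library 4 was below the vehicle range by far less. Inmt fell by 4.93 (SE 0.93, adjusted p = 0.00899), the largest fall among the genes named for size, and by 6.32 without library 4. Slc7a13, an amino acid transporter of the straight segment, was at 2.14, 24.2, 10.6 and 349.9 TPM against 321, 289.6, 277 and 294 TPM. Its difference was -3.63 (adjusted p = 0.0171), and library 4 lay above every vehicle library. On the convoluted list, Kap, the androgen-regulated kidney protein, was at 2219, 3663, 6160.2 and 23234 TPM against 21108, 21318, 19558 and 24464 TPM and fell by 1.88 (adjusted p = 0.0168). The steroid-metabolising gene Akr1c21, of the straight list, fell by 2.35 (adjusted p = 0.0346).

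The straight-part list also held 2 transporters that rose. Slc6a18, for neutral amino acids, was at 316, 269, 379 and 163 TPM against 134, 145, 161 and 112 TPM and rose by 0.97 (SE 0.21, adjusted p = 0.0116). Slc5a10, for sugars, was at 135, 201, 234 and 104 TPM against 76.4, 86.8, 102 and 108 TPM and rose by 0.79 (adjusted p = 0.0173). Both were high in libraries 1 to 3, and for Slc5a10 library 4 fell within the vehicle range. Among brush border peptidases, Ace was at 12.8, 22.7, 34.5 and 41.5 TPM against 58.6, 51.8, 55.1 and 62.4 TPM, lower in every library, and fell by 1.13 (adjusted p = 0.0129). Dpep1 fell by 1.46 (adjusted p = 0.0194). Of 14 transcription factors of the proximal tubule, 5 fell and none rose (6 and 2 without library 4, none in either direction without library 3, 2 falls without library 1 and at most 1 without a vehicle library), among them Hnf4a, a main regulator of the mature tubule, at 58.1, 143, 102 and 163 TPM against 182, 199.7, 175 and 197 TPM (-0.79, adjusted p = 0.0261), and Klf15 (-1.06, adjusted p = 0.0258).

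Other large falls named by the rule for size were in metabolic and secreted-protein genes. Ces1e, a carboxylesterase, was at 0.73, 6.2, 1.48 and 22.2 TPM against 33.2, 38.3, 35.4 and 42.2 TPM, a difference of -2.88 (adjusted p = 0.00915). Every hypoxia-plus-cisplatin library was below every vehicle library for Ces1e, and library 4 was the nearest. Pzp, a protease inhibitor, was at 0.264, 0.774, 0.902 and 11.8 TPM against 14.2, 12.6, 12.9 and 34.7 TPM and fell by 2.72. Fcamr, a receptor for immunoglobulins, was at 1.11, 3.59, 1.4 and 9.1 TPM against 14.9, 13.3, 11.3 and 36.4 TPM and fell by 2.20. Vehicle library 4 was the highest of all 8 for both genes. Abca13 and Cml5 fell by 2.48 and 2.25.

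Along the rest of the nephron, 9 of 12 genes of the thick ascending limb fell and none rose, with a median of -1.19, and 6 of 11 of the distal convoluted tubule fell, with a median of -0.76. Library medians were -2.26, -0.74, -1.44 and -0.27 for the first list and -1.43, -0.74, -0.93 and 0.20 for the second. Without library 4, 10 and 10 fell, without library 3 none did, and without library 1, 2 and 2 did. Vehicle library 1, 2 or 3 left out gave 2 falls for the first list and 2 or 3 for the second. Umod, which encodes uromodulin, the main protein of normal urine, was at 372, 547, 603 and 1106 TPM against 1631, 1382, 1743 and 1012 TPM. Libraries 1 to 3 were below the vehicle range and library 4 was inside it, and the difference was -1.22 (SE 0.36, adjusted p = 0.0251). It lost the call without library 1 (-0.98, adjusted p = 0.0765), library 3 or vehicle libraries 1, 2 or 3. Egf, whose growth factor is made in the thick limb and distal tubule, was at 5.48, 29, 15.4 and 171 TPM against 208, 182, 208 and 155 TPM and fell by 2.79 (SE 0.67, adjusted p = 0.0144). Slc12a1, the furosemide-sensitive cotransporter, fell by 1.46 and the phosphatase inhibitor gene Ppp1r1a by 1.55 (adjusted p = 0.0385 and 0.0131).

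Slc12a3, the thiazide-sensitive cotransporter, was at 13.6, 61.1, 53.5 and 254 TPM against 256, 259, 253 and 273 TPM and fell by 2.13 (adjusted p = 0.0189). Pvalb, parvalbumin of the distal convoluted tubule, was at 0.244, 1.01, 0.356 and 15.2 TPM against 9.82, 11.5, 12.8 and 11.2 TPM, a difference of -2.17 (adjusted p = 0.0183). For Pvalb library 4 was above every vehicle library while the other 3 were low. Collecting duct genes had fewer calls, and their counts are too few to set apart from the 10.1% of all genes that fell. Of 10 principal cell genes 1 fell, the water channel gene Aqp3 at -0.62 (adjusted p = 0.0242), and Aqp2 was at -0.42 (adjusted p = 0.402). Of 11 intercalated cell genes 2 fell, the anion exchanger gene Slc4a1 at -1.34 and the proton pump gene Atp6v1b1 at -0.68 (adjusted p = 0.0206 and 0.0457). Without library 4, 2 and 5 fell, while 17.9% of all genes did so. Leaving out library 1 or vehicle library 3 ended the calls of falls in both lists, and library 3 or vehicle library 1 those in the second. Whether the segments differ in this was not tested.

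Transport and repair of the drug itself were described from lists of 10 and 15 genes. Of the transporters of cisplatin and copper, 4 rose and 1 fell, and 4 and 3 without library 4. For both lists, the shares over all genes were 19.2% and 10.1%, and 33.5% and 17.9% without library 4. None passed without library 3, and 1 to 3 rose when any other of the 8 libraries was left out. Slc47a1, the exporter MATE1, was at 65.8, 126, 92.8 and 201 TPM against 180.03, 207, 184 and 223 TPM and fell by 0.82 (adjusted p = 0.0235). Slc22a2, the importer OCT2, was at 28.9, 94.4, 71.3 and 155 TPM against 129, 137, 118 and 140.2 TPM, a difference of -0.80 that did not pass (adjusted p = 0.0873) but did without library 4 (-1.16, adjusted p = 0.00443). Atox1, a copper chaperone, was at 209.7, 229, 235 and 105 TPM against 102, 110.3, 107 and 109 TPM and rose by 0.79 (adjusted p = 0.0149). The efflux pump genes Abcc2 and Abcb1a rose by 0.63 and 0.81, with library 4 below the vehicle libraries for both. Slc31a2 rose by 0.39. The list of repair of platinum adducts had 6 rises (7 without library 4, none without library 3, 1 without library 1 and 2 or 3 without a vehicle library) and 1 fall, Atm at -0.35 (adjusted p = 0.0291). Ercc5, a nuclease of nucleotide excision repair, was at 14.8, 10, 13.5 and 4.17 TPM against 4.7, 4.44, 4.82 and 4.65 TPM and rose by 0.92, and Ercc1, part of the nuclease that cuts on the other side of the lesion, was at 35.3, 5.05, 15.1 and 2.58 TPM against 2.87, 2.75, 3.37 and 2.43 TPM and rose by 1.47 (adjusted p = 0.0189 and 0.0386). Library 4 lay below every vehicle library for Ercc5 and within their range for Ercc1.

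In energy metabolism, transcripts of the mitochondrial genome fell in 8 of 14 genes, with a median of -0.54 and library medians of -0.98, -0.57, -0.59 and 0.05. Without library 4, 13 fell, without library 3, 1, and without library 1 or any 1 vehicle library, 2 to 4. mt-Cytb, cytochrome b of complex III, was at 2185, 3188, 2892 and 6885 TPM against 7034, 6849, 6958 and 7054 TPM. Libraries 1 to 3 had less than the vehicle libraries and library 4 lay among them, with a difference of -1.02 (adjusted p = 0.0153). Of 28 nuclear genes of the respiratory chain, 5 fell and none rose, with a median of -0.24, and 18 fell without library 4. None fell when library 1, library 3 or any 1 vehicle library was left out. Atp5b, a subunit of ATP synthase, was at 290.2, 461, 376 and 599 TPM against 564, 593, 596 and 579 TPM and fell by 0.48 (adjusted p = 0.0388).

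Genes of fatty acid and ketone use did not move as one. Of 22 genes of fatty acid oxidation, 6 rose and 2 fell, while 19.2% and 10.1% of all genes did so, and the median was 0.24. Of 9 genes of ketones and fasting, 5 rose and 4 fell. Without library 4 the counts were 8 and 7 for the first list and 5 and 4 for the second, and without library 3 they were 3 and 0 for both. The falls on the first list were 4 without library 2 and 1 without library 1 or vehicle library 1, 2 or 3. Cyp4a14, a fatty acid hydroxylase induced by PPAR-alpha, was at 206, 452, 368 and 21.7 TPM against 6.98, 24.3, 6.04 and 1.89 TPM and rose by 4.39 (SE 0.85, adjusted p = 0.00948). Libraries 2 and 3 were the highest and library 4 overlapped the vehicle libraries. Oxct1, which lets cells burn ketone bodies, was at 33.3, 96, 76.8 and 365 TPM against 355, 377, 357 and 299.96 TPM and fell by 1.82 (adjusted p = 0.0183), and Bdh1, of the same pathway, fell by 1.51. Pdk4, a kinase that shuts off pyruvate oxidation, was at 80.8, 43, 74.5 and 14.9 TPM against 5.29, 8.64, 4.31 and 1.99 TPM. All 4 libraries exceeded the vehicle libraries, and Pdk4 rose by 3.04 (SE 0.51, adjusted p = 0.00655).

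Of 15 genes of glucose production, 4 rose and 3 fell, 5 and 4 without library 4, and 1 and 0 without library 3. The shares over all genes were 19.2% and 10.1%. Vehicle library 2 left out gave 3 and 1, and vehicle library 4 gave 2 and 1. G6pc, glucose-6-phosphatase, was at 10.5, 149.8, 90.1 and 189 TPM against 212, 286, 283 and 231 TPM and fell by 1.77 (adjusted p = 0.0463). Pck1, phosphoenolpyruvate carboxykinase, was at 451, 1953, 1767 and 1278 TPM against 990.1, 1025, 875 and 822 TPM, lower than vehicle in library 1 and higher in the other 3, and did not pass (0.36, adjusted p = 0.467). Slc38a3, a glutamine transporter, was at 24.9, 45.2, 64.4 and 6.63 TPM against 8.93, 8.21, 8.65 and 4.09 TPM and rose by 1.76 (adjusted p = 0.0202). Slc16a1, the lactate and ketone transporter MCT1, was at 27.9, 25.4, 29 and 15.6 TPM against 7.34, 8.19, 7.2 and 7.84 TPM. All 4 libraries were well above the vehicle libraries, and the difference was 1.52 (SE 0.15, adjusted p = 0.000283).

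HIF targets, the genes that low oxygen is known to induce, were mixed at 72 h after the injection. Of 26 tested, 7 rose and 2 fell, while 19.2% and 10.1% of all genes did so. The median was -0.00, and it turned to 0.02 with a composition-corrected scale, 0.02 without library 4 and 0.07 by limma's voom on recovered reads. Library medians were -0.00, 0.18, 0.07 and 0.12. Without library 4, 10 rose and 5 fell, while 33.5% and 17.9% of all genes did so. Without library 3, 5 rose and 0 fell. The falls were 4 without library 2 and 1 without library 1 or vehicle library 1, 2 or 3. Vegfa, the growth factor of blood vessels, was at 21.7, 33.9, 27.1 and 48.5 TPM against 53.4, 50.5, 47 and 50.9 TPM and fell by 0.67 (SE 0.17, adjusted p = 0.0166), with library 4 within the vehicle range. Adm, the vasodilator adrenomedullin, was at 41.3, 13, 26.3 and 5.26 TPM against 2.83, 3.34, 3.98 and 4.66 TPM and rose by 1.94 (SE 0.42, adjusted p = 0.0116). Angptl4, an inhibitor of lipoprotein lipase, was at 73.6, 53.7, 81.1 and 25.5 TPM against 12.4, 26.8, 20.2 and 11.9 TPM and rose by 1.61 (adjusted p = 0.00955). Plin2, a coat protein of lipid droplets, was at 445, 84.9, 219 and 25.9 TPM against 20.4, 25.3, 22 and 21.9 TPM and rose by 2.40 (adjusted p = 0.0153). Adm and Plin2 were high in libraries 1 and 3 and close to vehicle in library 4.

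Genes of sugar use on the HIF list gave differences under 1. Pfkfb4 and Hk2, of glycolysis, rose by 0.69 and 0.99 (adjusted p = 0.00976 and 0.0195), and Eno1 rose by 0.34. The glucose transporter gene Slc2a1 at 0.65, Ldha at 0.14, Pdk1 at -0.26 and the carbonic anhydrase gene Car9 at -0.49 did not pass. Of 9 HIF subunits and regulators 2 rose, the HIF prolyl hydroxylase gene Egln3 at 12.3, 7.12, 11.9 and 4.21 TPM against 4.53, 4.11, 3.85 and 2.81 TPM (0.95, adjusted p = 0.016), and Hif3a (0.83, adjusted p = 0.0467). Without library 4, 4 rose and 1 fell, without library 3 none passed, and 1 rose when any other library was left out. Over all genes the share that rose was 19.2%, and 33.5% without library 4. Epo, the hormone gene of the hypoxic kidney, was below the level needed for the test. With no hypoxia library from a vehicle mouse and no earlier time point, these values do not describe the hypoxia period itself.

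Of 19 NRF2 targets, the antioxidant genes, 13 rose and 1 fell, with a median of 0.85 and library medians of 1.73, 0.65, 0.89 and 0.06. Without library 4, 15 rose and 2 fell, and without library 3, 4 and 1. Nqo1, a quinone reductase, was at 178, 134, 172 and 21.8 TPM against 23.4, 23.9, 27.3 and 22 TPM. It rose by 1.98 (adjusted p = 0.0149), with library 4 just below the vehicle range. Hmox1, heme oxygenase, was at 115, 26.8, 58.2 and 11.9 TPM against 10.7, 14.5, 9.36 and 11.8 TPM and rose by 1.67 (adjusted p = 0.0206). The glutathione synthesis gene Gclc and the thioredoxin reductase gene Txnrd1 rose by 1.31 and 1.54. The fall was Osgin1, at 13.1, 13.6, 15.1 and 15.6 TPM against 25.4, 25.5, 17.3 and 19.3 TPM, lower in all 4 libraries (-0.56, adjusted p = 0.0131). Of 10 metallothionein and glucocorticoid-induced genes, 4 rose and 2 fell, 5 and 2 without library 4, and 2 and 0 without library 3. The shares over all genes were 19.2% and 10.1%. Library 1 or vehicle library 2 left out gave 2 and 1, and vehicle library 1 or 3 gave 3 and 1. The metal-binding Mt1 was at 921, 305, 717 and 57.5 TPM against 94.4, 71.2, 79.2 and 91 TPM and rose by 1.97 (adjusted p = 0.0303), Fkbp5 rose by 1.04 and Tsc22d3 fell by 0.68.

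Inflammatory signalling genes were high in libraries 1 to 3. Of 17 NF-kB and chemokine genes, 12 rose and none fell, with a median of 1.13 and library medians of 2.01, 1.12, 1.58 and -0.02. Of 16 genes of STAT3 signalling and complement, 10 rose and 1 fell, with a median of 1.09 and library medians of 1.26, 1.51, 1.37 and 0.19. Without library 4, 16 of the first list and 11 of the second rose. Without library 3 the counts were 0 and 7, and without library 1 they were 7 and 10. C3, the central complement component, was at 94.3, 144, 105 and 10.5 TPM against 1.92, 3.14, 4.42 and 3.1 TPM. All 4 libraries were above the vehicle libraries, library 2 was the highest and library 4 stood apart from the other 3, and the difference was 3.99 (SE 0.62, adjusted p = 0.00563). Lrg1, an acute-phase glycoprotein, was at 57.7, 15.2, 23.7 and 3.11 TPM against 1.16, 1.48, 1.81 and 1.87 TPM and rose by 2.78 (adjusted p = 0.00899). Socs3, the feedback inhibitor of STAT3, was at 21.7, 9.4, 12.1 and 1.55 TPM against 1.22, 0.734, 0.929 and 1.04 TPM and rose by 2.26 (adjusted p = 0.00976). Stat3 and the oncostatin M receptor gene Osmr rose by 1.00 and 0.92.

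Icam1, an adhesion molecule, was at 41.5, 31.8, 42.4 and 7.73 TPM against 8.07, 7.37, 8.11 and 6.88 TPM, and rose by 1.65 (adjusted p = 0.0137), with library 4 inside the vehicle range. Of the same list, Relb and Nfkb2, the subunits of the noncanonical NF-kB pathway, rose by 1.22 and 1.45. The macrophage growth factor gene Csf1 rose by 1.84 and the neutrophil chemokine gene Cxcl1 by 2.42. Interferon-stimulated genes rose in 11 of 24, with a median of 0.39, and in 16 without library 4. The number was 0 without library 3, 5 without library 1, 7 or 6 without vehicle library 1 or 4, and 4 with 1 weight per group. Isg15, a ubiquitin-like modifier, was at 5.4, 4.53, 5.92 and 1.18 TPM against 1.36, 1.32, 1.14 and 0.746 TPM and rose by 1.18 (adjusted p = 0.015). Bst2, Irf9 and Stat2 rose by 0.65, 0.39 and 0.42.

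Of 16 immediate-early genes, 7 rose, with a median of 0.84 and library medians of 1.86, 0.87, 1.18 and -0.36, and 14 rose without library 4. None rose without library 3, and 3 or 4 did without library 1 or any 1 vehicle library. Fosl1, a subunit of the AP-1 factor, was at 36.2, 3.53, 14.8 and 0 TPM against 0, 0, 0.0281 and 0.0315 TPM and rose by 2.82 (adjusted p = 0.0181), although library 4 was listed at 0. Myc rose by 1.33, and Fos at 0.95 and Egr1 at 0.90 did not pass. Of 17 cell-cycle genes tested, out of 29 on the list, 6 rose and none fell, with a median of 0.25. The rises were 7 without library 4, 0 without library 3, 2 without library 1 and 2 to 4 without a vehicle library. The ribonucleotide reductase gene Rrm2 rose by 1.07, Mcm7 of the replicative helicase by 0.50 and Top2a by 0.51, while Mki67 at 0.47 and Ccnd1 at -0.24 did not pass.

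Ribosomal protein genes gave small values, with 22 of 24 higher, a median of 0.51 and library medians of 0.90, 0.54, 0.63 and 0.00, and with 23 higher without library 4. Without library 3, 2 were higher, without library 1, 12, and without vehicle library 4, 13. Rpsa was at 374, 264, 291 and 197 TPM against 158, 159, 159 and 151 TPM and rose by 0.80 (adjusted p = 0.00655). Many of these genes have near-identical processed copies, so the authors' counting could have split their reads. Whether strand was used in counting is not given in the sources used here, so reads of overlapping genes on opposite strands cannot be told apart. Of 14 genes of the integrated stress response 8 rose, among them asparagine synthetase, Asns, by 1.07 and the serine synthesis gene Psat1 by 1.36 (adjusted p = 0.00655 and 0.0116), while Atf4 at 0.11 and Ddit3 at -0.07 did not pass. On this list 8 rose and 2 fell without library 4, 2 rose without library 3 and 5 without library 1. Of 17 chaperones, 2 rose and 4 fell (7 without library 4, 1 without library 1 or 3 or vehicle library 1 or 2, and 2 without library 2 or vehicle library 3). The shares over all genes were 19.2% and 10.1%. Hspb1, a small heat shock protein, was at 75.6, 26.4, 58 and 14.3 TPM against 9.99, 10.9, 10.5 and 5.6 TPM and rose by 1.89 (adjusted p = 0.0124). Hspa8, the constitutive Hsp70, was at 296, 302, 264 and 586 TPM against 626, 724, 561 and 669 TPM and fell by 0.90 (adjusted p = 0.0122). Of 24 genes of cholesterol synthesis, 1 rose and 8 fell (12 without library 4, 5 without library 2, and 1 to 3 without any other library), and Cyp51, a demethylase of the pathway, was at 4.42, 12.1, 13 and 59.5 TPM against 53.7, 51.4, 53.6 and 36.3 TPM (-1.65, adjusted p = 0.0255).

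Of 12 genes of transsulfuration and hydrogen sulfide, 1 rose and 3 fell, with a median of -0.23 and the same counts without library 4. The shares over all genes were 19.2% and 10.1%, and 33.5% and 17.9% without library 4. None passed without library 3, and without any 1 vehicle library 1 fell. Cth, cystathionine gamma-lyase, was at 20.1, 60, 55 and 46.3 TPM against 45.8, 48.2, 54.1 and 44.2 TPM. Library 1 was lower than the others and the remaining 3 were near the vehicle range, and the difference did not pass (-0.19, SE 0.25, adjusted p = 0.577). Its sign turned to 0.15 without library 1 and to 0.18 with weights fitted to each library. Cbs, the enzyme before it in the pathway, was at 11.5, 30.8, 27 and 37.4 TPM against 43, 41.2, 43.6 and 49.3 TPM and fell by 0.82 (adjusted p = 0.0265).

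Clock genes were also changed in library 4, whose median lay among those of libraries 1 to 3. The circadian clock is a transcription loop in which Arntl (BMAL1), Clock and Npas2 induce Per, Cry and Nr1d genes through the E-box, and in which Dbp, Tef and Hlf act on the D-box. Of 18 clock genes, 3 rose and 7 fell, with a median of -0.25 and library medians of -0.35, -0.27, -0.33 and -0.29. The 4 and 4 libraries did not overlap in 9 of the 18, of which 3 were higher and 6 lower. Over all genes, 15.2% did not overlap, with 8.5% higher and 6.67% lower. By the test 19.2% of all genes rose and 10.1% fell, so rises were no more frequent on the clock list than among all genes. Without library 4, 7 rose and 9 fell, and when any other of the 8 libraries was left out 3 or 4 rose and 6 or 7 fell.

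Promoters of the clock genes that rose or fell were searched for motifs of the loop, and some windows with a match are shown, with the motif in capitals. On either strand of the same RefSeq windows, the E-box CACGTG was found in 7.15% of all windows and in 3 of the 13 windows of the 9 clock genes called that are in the table, of Ciart and Tef. The ROR element AGGTCA, which Nr1d1 and Nr1d2 bind, was found in 16.3% of all windows and in 3 of the 13, of Arntl, Clock and Nr1d2. The D-box TTATGTAA was in 0.938% of all windows and in 1 of the 13, that of Per3. Windows without a match say nothing about the factors. The matching windows of Clock and Arntl and another matching window of Tef are not shown. The windows shown are those of Ciart (chr3:95882229-95882478, minus strand), Tef (chr15:81811164-81811413, plus strand), Per3 (chr4:151044666-151044915, minus strand) and Nr1d2 (chr14:18239107-18239356, minus strand).
Ciart: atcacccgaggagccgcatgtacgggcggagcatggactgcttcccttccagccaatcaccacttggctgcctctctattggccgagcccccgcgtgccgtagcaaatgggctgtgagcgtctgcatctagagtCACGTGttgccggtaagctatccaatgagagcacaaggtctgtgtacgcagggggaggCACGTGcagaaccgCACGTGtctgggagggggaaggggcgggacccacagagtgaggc
Tef: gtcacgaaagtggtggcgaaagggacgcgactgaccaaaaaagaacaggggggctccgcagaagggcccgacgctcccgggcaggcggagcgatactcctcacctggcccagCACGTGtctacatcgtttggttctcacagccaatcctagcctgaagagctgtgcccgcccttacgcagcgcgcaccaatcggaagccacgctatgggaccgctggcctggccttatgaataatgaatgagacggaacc
Per3: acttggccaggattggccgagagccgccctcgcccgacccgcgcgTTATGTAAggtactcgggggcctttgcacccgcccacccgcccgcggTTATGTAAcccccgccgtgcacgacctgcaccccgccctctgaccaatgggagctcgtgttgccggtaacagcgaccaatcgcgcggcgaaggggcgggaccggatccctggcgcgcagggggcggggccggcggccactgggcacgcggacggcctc
Nr1d2: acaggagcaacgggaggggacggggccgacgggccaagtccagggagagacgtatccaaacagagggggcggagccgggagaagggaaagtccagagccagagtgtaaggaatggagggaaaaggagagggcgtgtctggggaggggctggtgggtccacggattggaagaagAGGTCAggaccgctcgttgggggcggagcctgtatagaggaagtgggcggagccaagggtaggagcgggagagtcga
Ciart carries 3 E-boxes, at 116, 58 and 44 bases before its start, and Per3 carries 2 D-boxes.

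Dbp (ENSMUSG00000059824; chr7:45705088-45710203), the output factor of the clock, was at 3.68, 4.9, 3.72 and 2.77 TPM in libraries 1 to 4 and at 16.7, 16.4, 23.3 and 22.3 TPM with vehicle. Library 4 was the lowest of all, and the groups were far apart, with a fall of 2.12 (95% confidence interval -2.50 to -1.74, adjusted p = 6.68e-05). Per3, a repressor of the loop with 2 D-boxes in its window, was at 3.55, 4.73, 3.6 and 3.54 TPM against 8.86, 8.96, 9.83 and 8.92 TPM and fell by 1.07 (SE 0.09, adjusted p = 6.68e-05). Nr1d2, the nuclear receptor REV-ERB-beta, was at 12.3, 15.6, 11.8 and 10.5 TPM against 25.7, 27, 31.4 and 28.5 TPM and fell by 1.12 (SE 0.12, adjusted p = 0.000551). Ciart, a repressor of the loop with 3 E-boxes, was at 0.707, 0.741, 0.973 and 0.427 TPM against 1.8, 2.26, 4.07 and 2.85 TPM and fell by 1.10 (adjusted p = 0.00383). In all 4 genes each hypoxia-plus-cisplatin library was below each vehicle library.

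Npas2 was at 1.43, 1.96, 2.07 and 2.22 TPM against 0.547, 0.422, 0.235 and 0.392 TPM and rose by 1.06 (SE 0.14, adjusted p = 0.00246). Arntl was at 4.82, 8.05, 7.15 and 10.2 TPM against 2.72, 2.38, 1.43 and 1.72 TPM and rose by 1.46 (SE 0.21, adjusted p = 0.00373), with library 4 the highest and library 1 the lowest of its group. Clock was at 9.61, 9.57, 11.1 and 9.48 TPM against 8.07, 7.8, 7.42 and 7.3 TPM and rose by 0.34 (adjusted p = 0.00801). Of the other falls, Per2 was at 7.89, 11.5, 11 and 19.8 TPM against 26.2, 29.3, 27.6 and 26.2 TPM (-1.13, adjusted p = 0.00619) and Tef at 15, 34.4, 26.8 and 28.5 TPM against 45.3, 53.5, 61.2 and 54.6 TPM (-1.06, adjusted p = 0.00819), and Hlf fell by 1.17. In Per2 library 4 was nearest to vehicle. Nr1d1, the receptor REV-ERB-alpha, was at 10.3, 6.05, 7.48 and 0.843 TPM against 4.82, 4.64, 5.83 and 4.89 TPM, with libraries 1 to 3 above the vehicle range and library 4 far below it, and its mean difference did not pass (-0.02, 95% confidence interval -0.84 to 0.80, adjusted p = 0.971). Per1 at 0.37, Cry1 at -0.09 and Cry2 at -0.24 did not pass. The labels give no clock time of harvest, so time of day and group cannot be told apart.

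**Figure D4:**
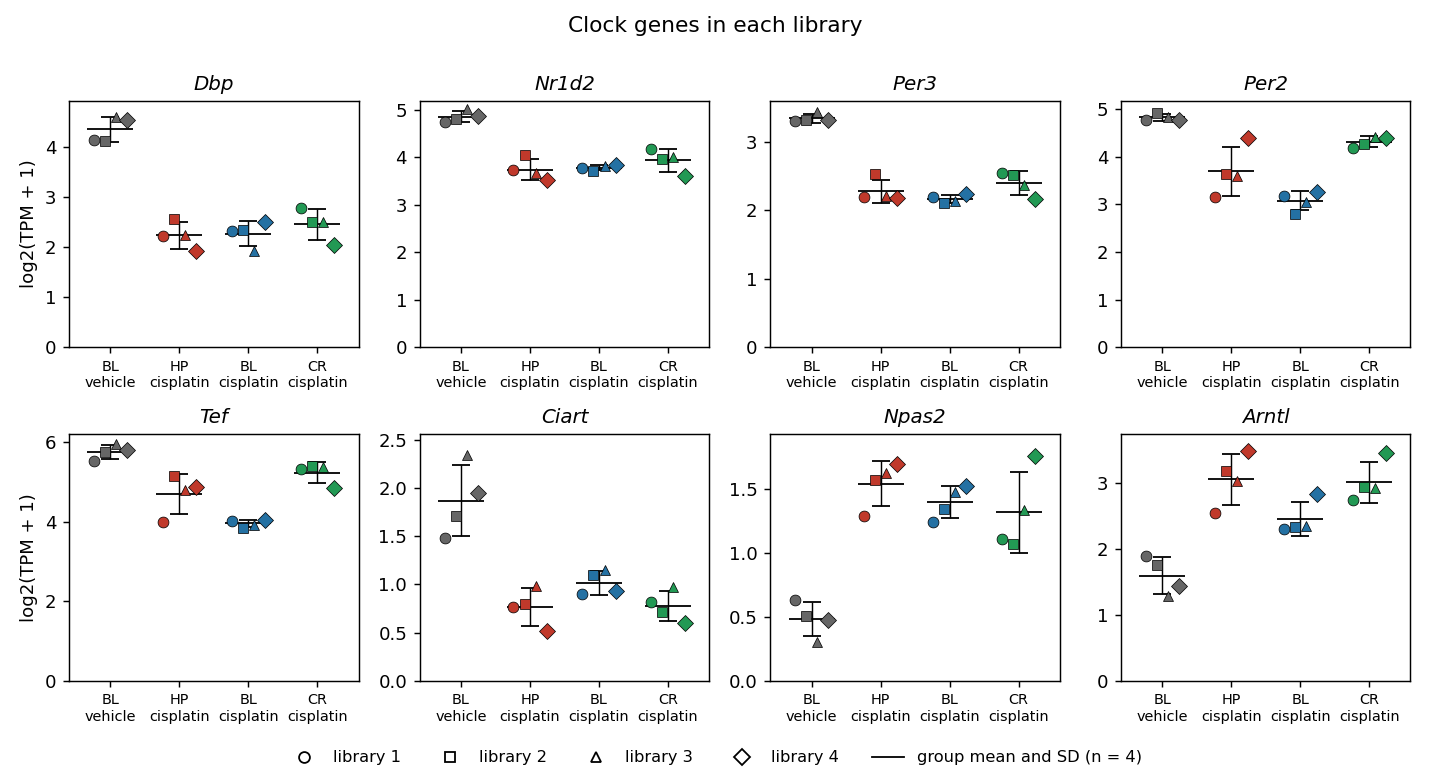
Points give log2(TPM + 1) (y axis) of 8 clock genes in each library by group (x axis), with group mean and SD (n = 4); BL is baseline, HP hypoxia and CR calorie restriction. For Dbp, Nr1d2, Per3 and Ciart all 3 cisplatin groups lie below vehicle, and for Npas2 and Arntl above it, with library 4 of hypoxia plus cisplatin among or beyond the others of its group.

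A rule for genes that moved alike in all 4 hypoxia-plus-cisplatin libraries (each library at least 1 from the vehicle mean on the log2 scale, a range of at most 1 among the 4, no overlap and past the test) found 3 rises, Cidec, Slc16a6 and Dtx4, and 2 falls, Dbp and Bcat1. Slc16a6, a ketone-body transporter of the monocarboxylate family, was at 11.1, 13, 14.8 and 7.78 TPM against 3.44, 2.17, 1.92 and 1.89 TPM and rose by 1.91 (SE 0.23, adjusted p = 0.00134). Dtx4, a ubiquitin ligase of Notch signalling, was at 8.19, 9.36, 8.73 and 5.69 TPM against 3.15, 2.26, 2.12 and 1.96 TPM and rose by 1.41 (SE 0.14, adjusted p = 0.000283). Bcat1, the cytosolic transaminase of branched-chain amino acids, was at 2.5, 1.69, 3.17 and 2.9 TPM against 9.95, 6.69, 11.3 and 6.3 TPM and fell by 1.41 (SE 0.20, adjusted p = 0.00414). In these 3 genes library 4 kept the direction of the others. The rule compared with vehicle alone, so it does not show that a gene is particular to hypoxia plus cisplatin. Dbp was lower than vehicle in the other cisplatin groups too.

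The 11 genes that passed when the 8 libraries were fitted alone were Dbp, Per3, Nr1d2, Npas2, Slc16a1, Slc16a6, Dtx4, Itga6, F5 and the unnamed loci Gm26652 and Gm27326. Their number includes 4 clock genes. Itga6, an integrin subunit that binds laminin, was at 38.5, 27.3, 33.1 and 30.5 TPM against 16.7, 16.2, 15.4 and 14.7 TPM, with an adjusted p of 0.0355 in that fit. F5, coagulation factor V, was at 1.12, 0.933, 0.892 and 1.23 TPM against 3.09, 2.85, 2.53 and 2.31 TPM, with 0.0355. Both had narrow ranges in each group and no overlap.

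At the other end, the 10 genes with the largest SD among the 4 libraries included Havcr1, Krt20, Lcn2, Cfd, Slc7a13, Gc, Inmt, Ucp1 and Fgg. Gc, the vitamin D binding protein, was at 238, 224, 215 and 3.27 TPM against 6.09, 5.07, 8.6 and 3.49 TPM, high and alike in libraries 1 to 3 and below the vehicle range in library 4. It rose by 3.68 (SE 0.95, adjusted p = 0.0174), and by 5.11 without library 4. Gc was named for its spread, which library 4 makes, so a test without that library is no support.

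Fat genes split the libraries in another way. Ucp1, the uncoupling protein of brown fat, was at 0.0154, 23.8, 0.0484 and 35.7 TPM in libraries 1 to 4 and at 0.0149, 0.133, 3.53 and 0.0163 TPM with vehicle, so that libraries 2 and 4 were high and libraries 1 and 3 near 0. The adipsin gene Cfd was at 0.137, 142, 6.09 and 34.7 TPM against 0.292, 0.0264, 31.5 and 0.465 TPM, and the adiponectin gene Adipoq at 0.0918, 20.1, 1.61 and 14.2 TPM against 0.0533, 0.106, 7.31 and 0.505 TPM, with the same libraries high and vehicle library 3 also raised. Neither passed (2.34 and 1.49, adjusted p = 0.314 and 0.344). Cidec, a lipid droplet protein, was at 13.5, 27.6, 17.3 and 17.3 TPM against 0.0792, 0.0525, 8.86 and 0.492 TPM and rose by 3.26 (SE 0.80, adjusted p = 0.0156). Cidec was raised in all 4 hypoxia-plus-cisplatin libraries. Of those near 0 for Ucp1, library 3 had Cfd at 6.09 and Adipoq at 1.61 TPM, while library 1 was low for both. Vehicle library 3, raised for Cfd and Adipoq, had the highest vehicle Cidec. By limma, Cidec lost the call with the 8 libraries alone (adjusted p = 0.134) and with 1 weight per group (0.156). It also lost it without hypoxia plus cisplatin 3 (0.0526). The part of fat tissue in the Cidec rise was not tested.

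Markers of other cells were checked beside these results. Podocyte genes gave 1 rise and 1 fall of 9, endothelial genes 4 falls of 12 with a median of -0.24, and macrophage genes 3 rises and 2 falls of 13 tested. Over all genes, 19.2% rose and 10.1% fell. Without library 4 the podocyte, endothelial and macrophage lists had 1 and 3, 1 and 5, and 3 and 2 rises and falls. Without library 3 they had 0 and 0, 0 and 1, and 0 and 0. Without library 2 endothelial genes had 8 falls and without library 1 or vehicle library 3 they had 2, and the macrophage falls were lost without library 1 or vehicle library 3. The summed level of the macrophage list was 68.9 to 109.8 TPM with hypoxia plus cisplatin and 57.7 to 77.5 TPM with vehicle, and that of the fat and adrenal list 15.4 to 206 and 0.87 to 56.2 TPM. Cd68, a lysosomal protein of macrophages, was at 47.5, 13.2, 31.6 and 1.86 TPM against 1.52, 1.57, 2.06 and 1.73 TPM and rose by 2.55 (adjusted p = 0.0139), and Cd14 rose by 1.60. Csf1r, the receptor that defines macrophages, was at 3.15, 7.83, 5.46 and 12 TPM against 13, 12.5, 14.5 and 10.4 TPM and fell by 0.86 (adjusted p = 0.0286), and C1qa was at 0.04 (adjusted p = 0.906). None of 12 T and NK cell genes, 2 of 7 B cell genes and 2 of 10 neutrophil genes reached the level needed for the test. S100a9 rose by 1.09 (adjusted p = 0.0189).

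Of 16 matrix and fibroblast genes 5 rose and none fell, with a summed level of 213 to 370.05 TPM against 147 to 184 TPM. Without library 4, 6 rose and 1 fell, and without any other library 4 to 7 rose. Col4a1, of basement membrane collagen, was at 140.1, 79.5, 111 and 65.4 TPM against 43.7, 44.5, 49.3 and 43.6 TPM and rose by 1.05 (adjusted p = 0.00619), and Col1a1 rose by 1.22. The endothelial genes that fell were Kdr, Emcn, Ehd3 and Tek, at -0.98, -1.01, -0.81 and -0.79. Hemoglobin Hbb-bs was at 5.82, 0.273, 0.491 and 13.5 TPM against 9.94, 10.8, 6.47 and 8.31 TPM, lowest in libraries 2 and 3. The part of other cells in the results was not tested.

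Set beside the other cisplatin groups, libraries 1 and 3 were nearer to the baseline cisplatin libraries than to vehicle, while libraries 2 and 4 were nearer to vehicle. The 3 cisplatin groups share the vehicle libraries, so their differences from vehicle are given side by side with no count in common. Baseline cisplatin against vehicle had 5710 genes higher and 4322 lower (38.0% and 28.8% of those tested, 66.8% together), and calorie restriction plus cisplatin had 8 (0.0533%), with 610 at an unadjusted p below 0.05. By noise ratio, library 1 stood 5.74 to 11.1 from the baseline cisplatin libraries, library 3 16.1 to 21.2 and library 2 32.8 to 39.2, while pairs of baseline cisplatin libraries had 3.37 to 12.2.

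Hypoxia plus cisplatin was then tested against baseline cisplatin directly. Of the genes tested, 2455 were higher (16.4%) and 1965 lower (13.1%) after hypoxia, or 29.4% together. Without library 4, 1834 were higher (12.2%) and 1049 lower (6.99%), or 19.2% together. The titles of the 2 groups begin with different codes while those of the vehicle and hypoxia libraries share one, so that whatever this code stands for and the preconditioning cannot be told apart in this contrast.

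Proximal tubule genes were higher after hypoxia plus cisplatin than after cisplatin alone, also without library 4. On the convoluted list 21 of 25 were higher and none lower, and 19 without library 4. On the straight list 18 of 22 were higher, 14 without library 4, and of 11 brush border peptidases 11 and 7. Slc34a1 was at 18.2, 18.2, 22.5 and 30.2 TPM after cisplatin alone, and the difference was 3.52 (adjusted p = 0.0119), or 2.68 without library 4 (adjusted p = 0.0274). Only library 1 of the hypoxia group lay within that range. Of 28 nuclear respiratory genes 27 were higher, with and without library 4, against 1 and 0 of the 14 mitochondrially encoded genes. Cth was at 16.1, 13, 12.2 and 17.4 TPM after cisplatin alone and differed by 1.47 (adjusted p = 0.00432), or 1.42 without library 4 (adjusted p = 0.00826).

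By limma, none of the 20 p53 targets of arrest passed in this contrast, with or without library 4, and 2 and 3 of them, respectively, had an unadjusted p below 0.05. Cdkn1a was at 172, 179, 181 and 177 TPM after cisplatin alone, and the difference was -1.52 (adjusted p = 0.184), or -0.29 without library 4 (adjusted p = 0.571). A p above the threshold does not show that the levels were equal. Injury markers were lower in 9 of 16 genes, with and without library 4, and dedifferentiation genes in 12 of 27, and 6 without it. Lcn2 was at 279.8, 305, 292 and 243 TPM after cisplatin alone, a difference of -3.16 (adjusted p = 0.033), or -1.73 without library 4 (adjusted p = 0.0233). Havcr1 was at 399.99, 344, 298 and 489 TPM and did not pass (-2.53, adjusted p = 0.15). Libraries 1 and 3 fell within or above the range after cisplatin alone for Havcr1, and library 2 below it.

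Interferon-stimulated genes were lower in 12 of 24 after hypoxia plus cisplatin, with and without library 4. Cell-cycle genes were lower in 14 of 17, and in 7 without library 4. The clock list had 5 higher and 2 lower of 18, and Arntl, at 3.94, 4.05, 4.07 and 6.13 TPM after cisplatin alone, was higher after hypoxia by 0.60 (adjusted p = 0.042). Side by side, the difference from vehicle of Dbp was -2.12 with hypoxia plus cisplatin, -2.08 with cisplatin alone and -1.90 with calorie restriction plus cisplatin. Per3 had -1.07, -1.18 and -0.94, and Nr1d2 -1.12, -1.08 and -0.92. For Cdkn1a the same 3 values were 4.97, 6.49 and 1.28, and for Havcr1 5.26, 7.79 and 0.12.

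**Figure D5:**
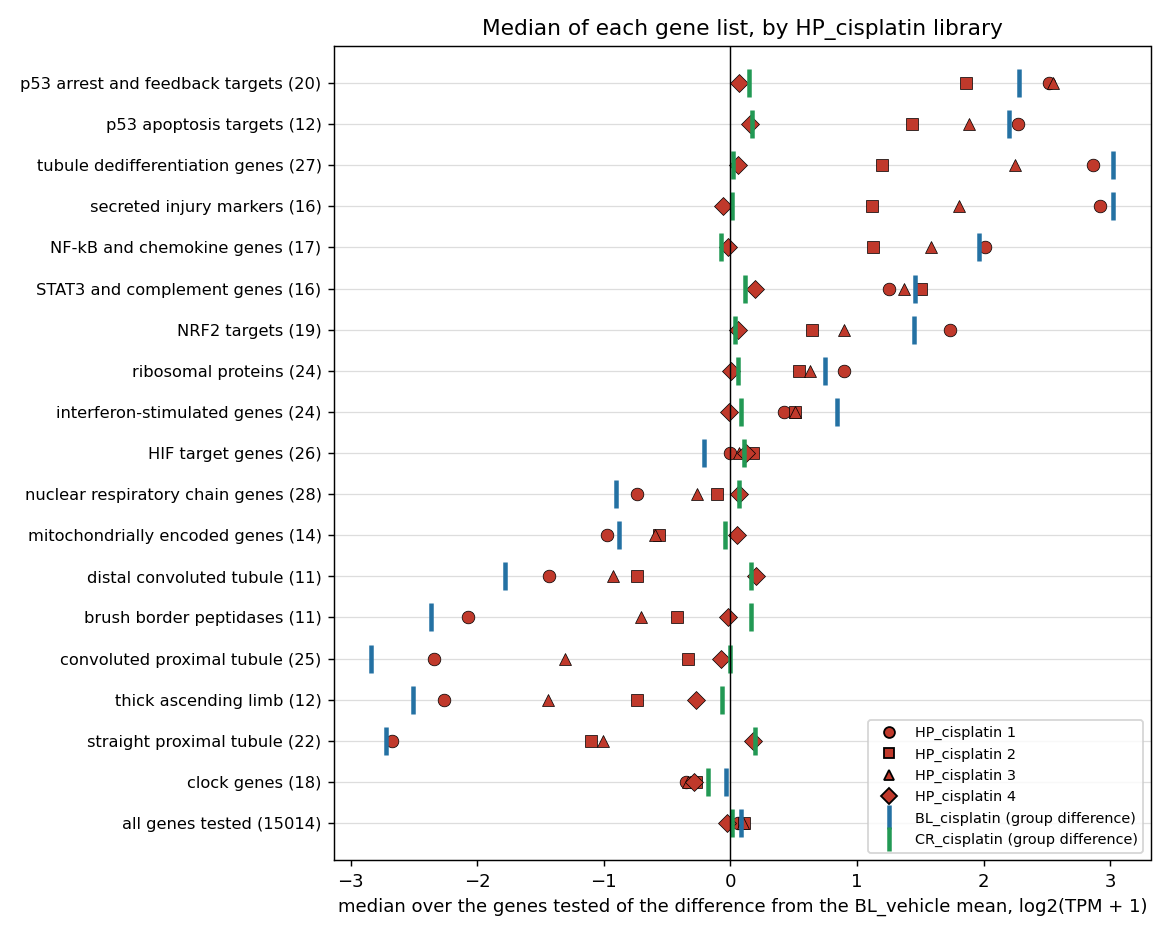
Points give, for each gene list (y axis, number of genes tested in parentheses), the median difference of each hypoxia-plus-cisplatin library (HP_cisplatin 1 to 4) from the vehicle mean in log2(TPM + 1) (x axis), and bars give the medians of the group differences for baseline cisplatin (blue) and calorie restriction plus cisplatin (green). Over the lists drawn, the medians of library 4 run from -0.29 (clock genes) to 0.20 (distal convoluted tubule), while those of library 1 run from -2.67 (straight proximal tubule) to 2.92 (secreted injury markers).

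The library labelled hypoxia plus cisplatin 4 and the library labelled calorie restriction plus cisplatin 4 were also alike in single genes. Ucp1 was at 35.7 and 37.4 TPM in them, while the other 3 calorie-restriction libraries had 0.0485 to 0.146 TPM. Cfd was at 34.7 and 33.1 TPM, Nr1d1 at 0.843 and 1.29 TPM and Cdkn1a at 3.76 and 3.84 TPM. The cause of this likeness was not tested.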

How the data were processed

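Total RNA of mouse kidney was sequenced in 16 random-primed libraries after depletion of ribosomal RNA, per the labels' protocols. The authors deposited TPM values of 46078 genes, scaled to the same sum in each library. Tools listed in the submitters' processing notes are STAR 2.5, Subread 1.5 and featureCounts, on mm10 (GRCm38), with no settings. All 16 columns matched a sample title. Whole reads were recovered from the deposited TPM values as multiples of what 1 read is worth per gene length. With GENCODE M21 exon lengths 24571 of 32198 genes with reads (76.3%) came out whole within 0.0001, and 7627 did with a length found by search. Depth was 49180903 to 62604521 reads per library.

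The values were analysed as log2(TPM + 1) for 15014 genes at 1 TPM or more in at least 4 libraries. The test was limma 3.58.1 (R 4.3.3), with the 4 groups as the only term, all 16 libraries sharing 1 spread, a trended robust prior and Benjamini-Hochberg adjustment with a threshold of 0.05. The fit was also run on simulated data with pooled and with group-specific spread. Its outcome is not given here, so it is no support for the calls. The noise ratio of 2 libraries is the median chi-square of their reads over genes divided by its median under counting noise alone. The alternatives were other pseudocounts, filters and scales, weights per library, voom, the 8 libraries alone and each library left out.

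Groups came from the preconditioning and injection labels. The comparison and the gene lists were chosen with earlier results of these data known. Genes were named by rule: the 10 largest rises and falls past the test with no overlap and a mean of at least 1 on the log2 scale, genes alike in all 4 libraries, the 10 with the largest SD, 6 fixed genes (Havcr1, Lcn2, Cdkn1a, Slc34a1, Umod and Cth), and up to 4 members per list and direction with the smallest adjusted p. The rule skipped genes with clone names, pseudogenes and genes tied to sex. Some genes that met the rules are not reported here. Genes named beyond this rule were chosen after their values were seen.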

Additional observations from a re-analysis of the deposited data

Results flagged for a closer look

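In groups of 4, a library was set apart when its gap to the nearest other, as a share of the group's range, passed Dixon's 95% limit, which chance gives in about 1 of 20 groups. Of 54 groups looked at over 27 genes, 4 had such a library. The complement gene C3 was at 10.5 TPM in hypoxia plus cisplatin 4, and the p53 target Phlda3 at 7.18 TPM in the same library, both far below the other 3 of the group. The lipid droplet gene Cidec was at 8.86 TPM in vehicle library 3, above the other vehicle libraries, and the protease inhibitor gene Pzp was at 34.7 TPM in vehicle library 4.

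For 12 of 27 genes looked at, those named for size, likeness or by fixed choice, the change after hypoxia plus cisplatin differed from that after cisplatin alone by limma's test of the difference (adjusted p, Benjamini-Hochberg), which 29.4% of all genes tested passed. Tubule and metabolic genes were higher after hypoxia plus cisplatin: Slc34a1 by 3.52 (adjusted p = 0.0119), Akr1c21 by 3.63 (0.00695), Slc22a8 by 2.66 (0.00743), Cml5 by 2.14 (0.0181), Abca13 by 1.69 (0.0319), Cth by 1.47 (0.00432) and Umod by 1.36 (0.0147). Injury and acute-phase genes were lower: Lcn2 at -3.16 (0.033), Sprr1a at -2.21 (0.0421), Lrg1 at -2.13 (0.012) and Fga at -2.06 (0.0191). The metabolic gene Pdk4 was lower too, at -1.55 (0.0365), against the direction of the metabolic genes above. With library 4 left out, these passed: Slc34a1 at 2.68 (0.0274), Akr1c21 at 2.89 (0.0129), Slc22a8 at 2.16 (0.0162), Cml5 at 1.49 (0.0371), Abca13 at 1.00 (0.0487), Cth at 1.42 (0.00826), Umod at 1.07 (0.0393), Lcn2 at -1.73 (0.0233), Lrg1 at -1.43 (0.0104) and Fga at -1.33 (0.0241). These did not: Sprr1a at -1.42 (0.119) and Pdk4 at -1.05 (0.105).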

How the results depend on the processing

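The count of 4398 calls was 11 (7 higher, 4 lower) with the 8 libraries fitted alone, 2563 (1761 higher, 802 lower) with 1 weight per group and 11124 (7006 higher, 4118 lower) with 1 weight per library, a fit whose weights did not converge. With no filter on low values 1921 genes were higher, and with median centring 2395 were lower, against 1509. Leaving out 1 library in turn gave 692 to 7709 calls, 460 to 5024 higher and 232 to 2685 lower, with the extremes from hypoxia plus cisplatin 3 and 4. Without library 4, calorie restriction plus cisplatin against vehicle had 17 calls, hypoxia plus cisplatin against baseline cisplatin 2883 and against calorie restriction plus cisplatin 7654. By limma's voom on recovered reads 3735 were higher and 1329 lower, or 73.8% higher. Of 198 named genes, 194 passed, and over 20 settings none of these changed sign. Of these 194 calls, 183 were lost with the 8 libraries alone, 116 without library 3, 54 without library 1, 13 without library 2, 35 to 48 without a vehicle library, 41 with group weights and 39 with no filter, and none without library 4. The last count is no check on library 4, because the genes were chosen with it in the fit. The settings added after seeing the data were group weights, and 8 libraries alone and group weights without library 4, which lost 7 and 8. Among genes that did not pass, Ucp1 turned to -0.36 and Cth to 0.18 with library weights, and Cth to 0.15 without library 1 (leaving out 1 library gave Cth -0.35 to 0.15). The cause was not tested. No paired analysis was possible because the labels number no replicates. The median SD over genes was 0.236 (log2) with hypoxia plus cisplatin and 0.0963 with vehicle, while the fit used 1 spread for all groups. Levels near 0 TPM rest on few reads.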
